A study of Mus musculus with 10 samples.

Results

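The 9 genes described here are the Fn14 receptor Tnfrsf12a and genes used as markers of bile duct cells and of liver progenitor cells: Sox9, Epcam, Krt7, Krt19, Spp1, Cd24a, Anxa2 and Cd44. All 9 were found by their symbol among the 39429 probes of the array that are not controls, with 12 probes in all, and 8 of the 9 were bright enough to be tested among 24004 genes. The series holds 10 arrays of mouse liver RNA, 2 at each of 3, 8, 24, 48 and 72 h. The mice were female C57BL/6 aged 8 weeks, all fasted for 24 h before the injection. Treated mice received acetaminophen at 350 mg/kg into the peritoneum, and control mice received its vehicle, PBS. Each array paired the liver of a treated mouse, labelled with Cy5, with that of a control mouse of the same time point, labelled with Cy3. The dyes were not exchanged on any array, so at a single time point a probe's dye effect and the treatment cannot be told apart. Differences between time points are free of any dye effect that all arrays share.

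Fn14, the product of Tnfrsf12a, is a small receptor of the tumour necrosis factor receptor superfamily whose ligand is TWEAK, the product of Tnfsf12, and it signals through TRAF adaptors to the NF-kB pathway. Healthy hepatocytes make little of it, and in injured liver TWEAK and Fn14 are known for driving the expansion of bile duct-like progenitor cells, the ductular reaction. The transcription factor Sox9, the adhesion protein Epcam and the keratins Krt7 and Krt19 mark bile duct cells and these progenitors, and osteopontin (Spp1), Cd24a, annexin A2 (Anxa2) and the hyaluronan receptor Cd44 are found on or made by ductular cells but also by other cells of injured tissue.

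At 48 h, the time of the broadest response among these genes, 5 of the 8 tested rose, at 24 h and at 8 h 2 of 8 rose, and at 3 h and 72 h none was called. The 5 genes higher at 48 h were Tnfrsf12a, Anxa2, Cd24a, Spp1 and Sox9, of which Spp1 was called in 13 of 23 alternative fits. Krt7, Krt19 and Cd44 were not called at any time point by the probe that stood for each gene. A gene was called at an adjusted p of 0.05 in limma. Among all genes tested, 33.3% were called at 48 h, 19% as higher and 14.3% as lower. At 24 h 19.7% were called, 7.67% as higher and 12.1% as lower, and at 8 h 15.8%, 7.36% and 8.41%. At 3 h 5.37% were called, 2.45% as higher and 2.92% as lower, and at 72 h 0.0167% or 4 genes, 0.00833% each way. At an unadjusted p below 0.05 limma gave 1 of the 8 genes at 3 h, Krt19, and 0 at 72 h. The median log2 ratio of treated over control over the 8 genes was, in the order of the time points, -0.04, -0.09, 0.49, 1.12 and -0.03, while the median over all genes lay between -0.01 and 0.00.

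**Figure D1:**
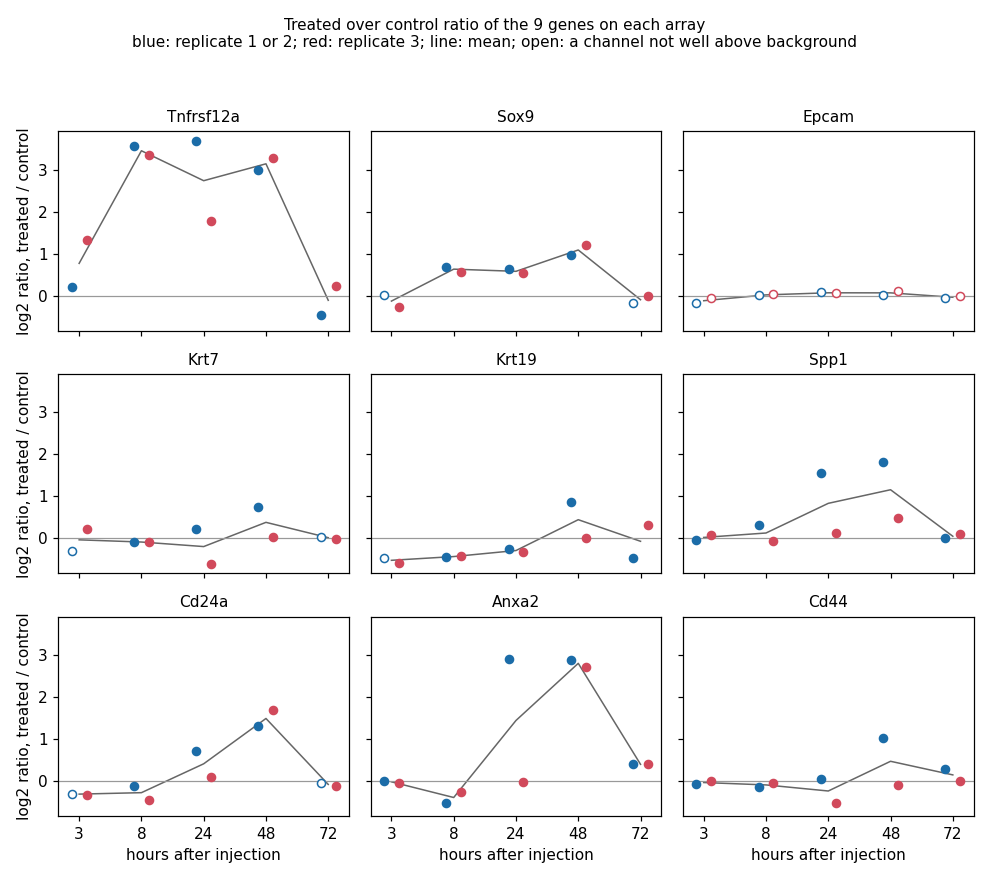
Log2 ratio of treated over control liver (vertical axis) against hours after injection for the 9 genes; each point is 1 array, blue for the replicate numbered 1 or 2 and red for replicate 3, the line joins the means, and open points have a channel not well above background. Tnfrsf12a is above 1.7 on all 6 arrays from 8 to 48 h, the means of Anxa2 and Cd24a are highest at 48 h, and Epcam, with open points, stays near 0.

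Facts of the arrays that bear on these values are as follows. Between 59.7% and 83.7% of probes were well above background in the control channel and between 44.7% and 75.9% in the treated channel. The 2 arrays of a time point had log2 ratios that correlated across genes, which are not independent replicates, with r = 0.676, 0.805, 0.828, 0.859 and 0.239 in the order of the time points, so that of 72 h was the weakest. The arrays lay on 4 slides and were scanned on 2 days, with replicate 3 of every time point on the second day, so the value of each array given below is also the value within its slide and day.

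Tnfrsf12a and Anxa2 had the largest ratios of the 9 genes at 48 h, and the 250 bases before their start sites are shown because the windows held different motifs of factors named below. The sequences are from RefSeq on GRCm38.p6, with capitals for AP-1 and TATA box matches, at chr17:23677450-23677699 on the minus strand for Tnfrsf12a and chr9:69453433-69453682 on the plus strand for Anxa2.
Tnfrsf12a: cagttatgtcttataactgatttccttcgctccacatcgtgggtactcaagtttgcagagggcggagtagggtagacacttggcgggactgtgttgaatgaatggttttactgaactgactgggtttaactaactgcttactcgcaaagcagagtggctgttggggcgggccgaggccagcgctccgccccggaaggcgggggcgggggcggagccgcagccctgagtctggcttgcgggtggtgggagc
Anxa2: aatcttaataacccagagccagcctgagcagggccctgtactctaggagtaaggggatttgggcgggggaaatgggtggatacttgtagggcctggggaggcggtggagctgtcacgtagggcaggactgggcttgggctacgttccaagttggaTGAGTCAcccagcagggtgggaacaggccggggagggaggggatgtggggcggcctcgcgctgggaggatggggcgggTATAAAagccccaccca
The motifs searched on both strands were TGACTCA for AP-1 (TGAGTCA on the other strand), GGAATG for TEAD factors, GGG and CC with 5 bases between them for NF-kB and TATAAA for the TATA box. Of 32851 RefSeq windows of the same length, 4.46% held the AP-1 motif, 12.6% the TEAD motif, 45.8% the NF-kB motif and 12.4% the TATA box. The Anxa2 window held the AP-1 letters 95 bases and TATAAA 17 bases before the start, and the Tnfrsf12a window held the NF-kB letters at 88 and 44 bases before it. Windows were at hand for 6 of the 9 genes. Among the others the NF-kB letters stood 64 bases before the start in Krt7 and 45 in Cd44, TATAAA stood 211 bases before it in 1 of 2 Spp1 windows, and no window of these genes held the TEAD letters.

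Tnfrsf12a had the highest mean ratio of the 8 tested genes at 8, 24 and 48 h. Its probe lies at chr17:23812746-23812805 of mm9 and was well above background in both channels of all 10 arrays. The log2 ratios of the 2 arrays were 0.21 and 1.33 at 3 h, 3.56 and 3.35 at 8 h, 3.70 and 1.78 at 24 h, 3.00 and 3.29 at 48 h and -0.46 and 0.24 at 72 h. Both arrays were thus far above 0 from 8 to 48 h. At 3 h replicate 3 was raised and replicate 1 was near 0, and the arrays of 72 h lay on either side of 0. The mean of the 2 arrays was 3.45 ± 0.42 (SE) at 8 h, 10.9-fold (adjusted p = 0.0016, limma), 2.74 ± 0.42 at 24 h, 6.68-fold (adjusted p = 0.0023), and 3.14 ± 0.42 at 48 h, 8.83-fold (adjusted p = 0.000789). The 8 h and 24 h calls were lost when arrays were centred by the median in place of loess, with ratios of 3.13 (adjusted p = 0.0674) and 2.09 (adjusted p = 0.0781). At 3 h it was 0.77 ± 0.42 (adjusted p = 0.347) and at 72 h -0.11 ± 0.42 (adjusted p = 0.967).

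On the replicate 3 array at 24 h, where the ratio of Tnfrsf12a was lower than on the other, the control liver was higher and the treated liver lower than on the other array. On the log2 scale of the channels the control livers of this gene ran from 8.13 over a median of 9.06 to 10.24, and the highest was that of the 24 h replicate 3 array; the next was 9.41. The treated livers stood at 12.97 and 12.33 at 8 h, 13.00 and 12.02 at 24 h, and 12.22 and 12.15 at 48 h. Each of these 6 treated livers was above every control liver. At 72 h the treated livers, at 7.68 and 8.48, lay on either side of the controls of that time. Those controls, at 8.13 and 8.24, were the lowest of the 10.

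**Figure D2:**
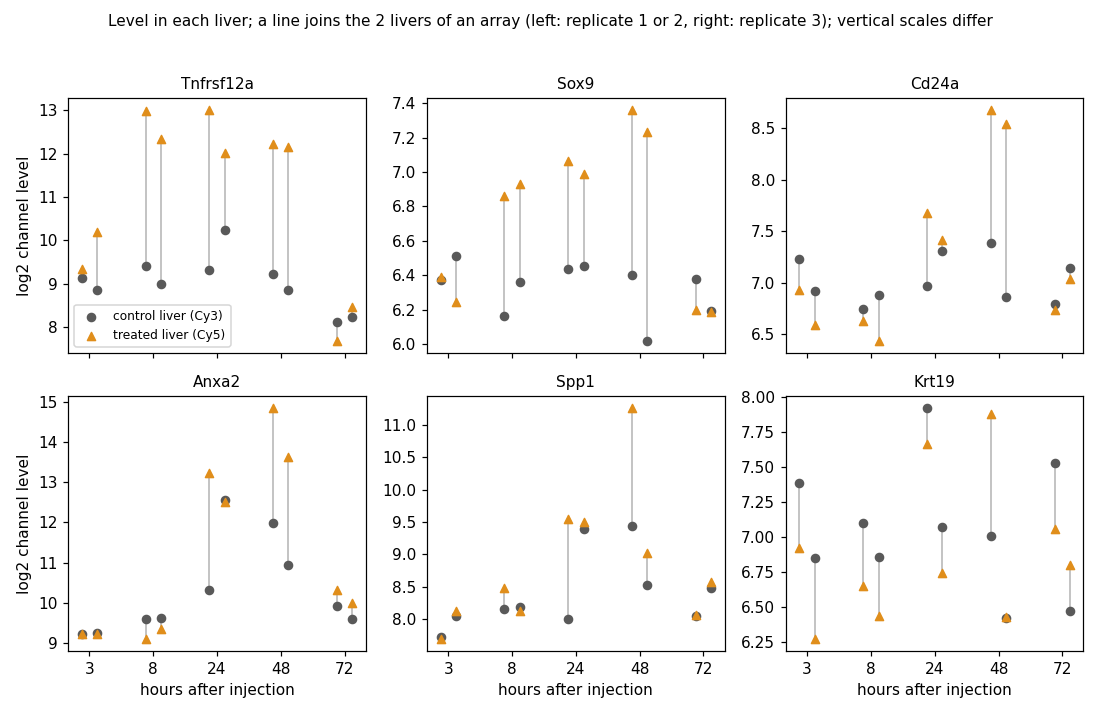
Log2 level in each liver (vertical axis, a different scale in each panel) against hours after injection for 6 of the genes; grey circles are control livers, orange triangles treated livers, and a line joins the 2 livers of an array. For Tnfrsf12a, Sox9, Cd24a and Anxa2 both treated livers at 48 h lie above both controls, and for Anxa2 the 24 h replicate 3 control, at 12.56, lies level with its treated liver.

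Sox9, the transcription factor of bile duct cells and progenitors, rose at the same time points as Tnfrsf12a but by less. Its probe (chr11:112648809-112648868, mm9) is spotted 10 times on each array, was well above background in all 10 control livers and in 8 of 10 treated livers, and is dim, with control levels from 6.02 to 6.51. The ratios of the 2 arrays were 0.02 and -0.27 at 3 h, 0.70 and 0.57 at 8 h, 0.63 and 0.54 at 24 h, 0.96 and 1.22 at 48 h and -0.18 and -0.01 at 72 h. Both arrays were above 0 from 8 to 48 h. The mean was 0.63 ± 0.11 (SE) at 8 h (adjusted p = 0.00648, limma), 0.58 ± 0.11 at 24 h (adjusted p = 0.00567) and 1.09 ± 0.11 at 48 h, 2.13-fold (adjusted p = 0.000199). The size of the Sox9 ratio depends on the scale near background: in the scanner software's own ratio the arrays gave 2.24 and 3.12 at 48 h, 2.36 and 1.35 at 8 h, 2.15 and 1.06 at 24 h, and -1.56 and 0.05 at 72 h, so that pairs lay farther apart there. The 8 h call was lost with median centring (adjusted p = 0.116), with the background model fitted on all spots (adjusted p = 0.13) and without 8 h replicate 2 (adjusted p = 0.115), and the 24 h call with the same settings (adjusted p = 0.0754 and 0.397) and without 24 h replicate 1 (adjusted p = 0.102).

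The other bile duct markers were not called at any time point. Krt7, a keratin of duct cells, had ratios of -0.30 and 0.22 at 3 h, -0.08 and -0.10 at 8 h, 0.23 and -0.62 at 24 h, 0.74 and 0.02 at 48 h and 0.04 and -0.01 at 72 h. The arrays of 24 h went opposite ways, and at 48 h only replicate 1 was raised, with a mean of 0.38 ± 0.23 (adjusted p = 0.24, limma).

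Krt19, the partner keratin of duct cells, was below its control on all 6 arrays from 3 to 24 h: -0.47 and -0.58 at 3 h, -0.44 and -0.42 at 8 h, and -0.26 and -0.33 at 24 h. At 48 h its ratios were 0.87 and 0.01 and at 72 h -0.47 and 0.33. The mean of -0.52 ± 0.22 at 3 h had an adjusted p of 0.218 and that of 0.44 ± 0.22 at 48 h one of 0.16 (limma). Its 3 h ratio was -1.70 in the software's scale, where it was called lower (adjusted p = 0.0447). Without replicate 3 at 48 h the ratio of 0.87 was called (adjusted p = 0.0434).

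Epcam, the surface adhesion protein by which duct cells and progenitors are sorted, could not be followed. Its single probe, which covers chr17:88048972-88049800 of mm9 in parts, is shown because no level of the gene rests on anything else:
Epcam A_52_P447944: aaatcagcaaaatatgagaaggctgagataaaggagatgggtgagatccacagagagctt
It was well above background in 2 control livers, those of replicate 3 at 8 h and at 72 h, and in 0 treated livers. The levels, between 5.92 and 6.18 in all 20 livers, are therefore only bounds, and no fold was computed. When fitted without the filter on dim probes, the ratios were between -0.12 and 0.07, each ± 0.06 (SE).

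Among the genes of surface and secreted proteins, Cd24a rose at 48 h on both arrays. Cd24a, a small anchored surface protein used to isolate liver progenitors, had ratios of -0.30 and -0.33 at 3 h, -0.12 and -0.45 at 8 h, 0.71 and 0.10 at 24 h, 1.29 and 1.67 at 48 h and -0.06 and -0.11 at 72 h. All 4 early arrays were below 0 and both 48 h arrays far above it. The 48 h mean was 1.48 ± 0.16 (SE), 2.80-fold (adjusted p = 0.000268, limma), and that of 24 h was 0.40 ± 0.16 (adjusted p = 0.117). Control livers ran from 6.75 to 7.38, and of the treated livers of 48 h, at 8.68 and 8.54, the lower stood 1.15 above the higher control of that time.

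Spp1 encodes osteopontin, a secreted matrix protein made by duct cells, macrophages and stellate cells. Its ratios were -0.03 and 0.07 at 3 h, 0.32 and -0.07 at 8 h, 1.55 and 0.12 at 24 h, 1.82 and 0.49 at 48 h and 0.01 and 0.09 at 72 h. At 24 h and 48 h the rise was mostly that of replicate 1, in whose treated liver Spp1 reached 11.27 at 48 h against 9.03 in replicate 3. The treated and control levels of 48 h overlapped, since the replicate 1 control was at 9.45. The mean of 1.16 ± 0.36 (SE) at 48 h, 2.23-fold, was called (adjusted p = 0.037, limma) and that of 0.83 ± 0.36 at 24 h was not (adjusted p = 0.158). The 48 h call held in 13 of 23 alternative fits. Without replicate 1 the 48 h ratio was 0.49 and no longer called (adjusted p = 0.44), and the call was also lost in the software's ratio (adjusted p = 0.0821). Without replicate 3 the 24 h ratio was 1.55 and was called (adjusted p = 0.0361).

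Anxa2, which binds calcium and membrane lipids and, with its partner S100a10, holds plasminogen at the cell surface, rose later than Tnfrsf12a. The ratios were -0.00 and -0.04 at 3 h, -0.52 and -0.28 at 8 h, 2.91 and -0.04 at 24 h, 2.89 and 2.71 at 48 h and 0.39 and 0.40 at 72 h. The 2 arrays of 24 h disagreed, and those of every other time point lay close together. The 48 h mean was 2.80 ± 0.52 (SE), 6.95-fold (adjusted p = 0.00415, limma), and the 24 h mean of 1.44 ± 0.52 was not called (adjusted p = 0.0985). Without replicate 3 the 24 h ratio was 2.91 and was called (adjusted p = 0.000188), and without replicate 1 it was -0.04. Without either array of 24 h, the 8 h mean of -0.40 was called lower (adjusted p = 0.0337), which it was not with all arrays.

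The disagreement of Anxa2 at 24 h lay mostly in the control livers. The treated livers of 24 h were at 13.23 and 12.52, closer to each other than the controls at 10.32 and 12.56. Over all 10 control livers Anxa2 ran from 9.22 over a median of 9.77 to 12.56, and the controls of 48 h, at 11.98 and 10.93, were next. The 24 h replicate 3 control was also the highest of 10 for Tnfrsf12a. It was so too for S100a6, of the family of the Anxa2 partner S100a10 (11.85, the others between 7.80 and 9.17). For the fetal plasma protein Afp it stood at 8.75, the others between 6.11 and 6.86. The same liver was the highest control for the macrophage genes Marco (11.58) and Lgals3 (10.91), the neutrophil gene S100a9 (10.59) and the keratin Krt8 (13.64), though not for every gene named here. The summed linear level of the macrophage markers was highest in another control, that of 72 h replicate 3 (19460, against 16530 in this liver). That of the neutrophil markers was highest in the 48 h replicate 1 control (30090, against 19660). The fit on all 10 controls keeps this liver and pools the controls of all time points. The mean Anxa2 control level was 9.24, 9.61, 11.44, 11.45 and 9.76 in the order of the time points. In that fit the treatment and differences between the time points of the controls cannot be told apart. When the treated livers of 24 h were set against all 10 control livers, Anxa2 rose by 1.75 (adjusted p = 0.0164), Spp1 by 0.91 (adjusted p = 0.0453) and Cd24a by 0.44 (adjusted p = 0.0125), which took the count called at 24 h from 2 to 5.

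**Figure D3:**
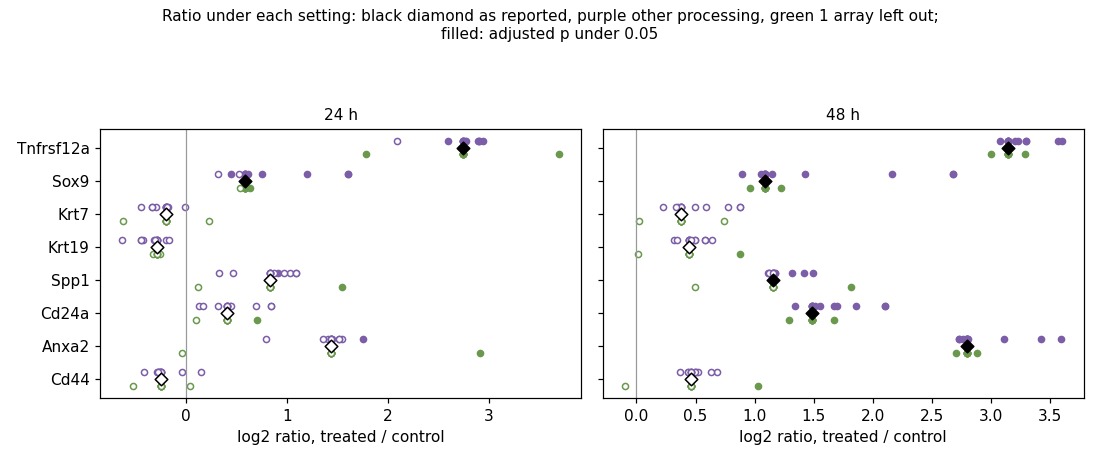
Log2 ratio of treated over control (horizontal axis) of the 8 tested genes at 24 h and 48 h under each way of processing; black diamonds are the values reported, purple points other processing, green points fits with 1 array left out, and filled marks have an adjusted p under 0.05. At 48 h Tnfrsf12a, Sox9, Cd24a and Anxa2 are filled throughout, and at 24 h the green points of Anxa2 run from -0.04 to 2.91.

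Cd44, the hyaluronan receptor, gave different answers by probe. Its brightest probe (A_55_P2064043, chr2:102651398-102651457 of mm9, minus strand) had ratios of 1.03 and -0.10 at 48 h, a mean of 0.46 ± 0.24 that was not called (adjusted p = 0.175, limma). A dimmer probe, A_55_P2166501 at chr2:102654278-102654337, had ratios of 0.94 and 0.31 at 24 h and 1.45 and 0.61 at 48 h. Its 48 h mean of 1.03 ± 0.22 passed when all 29617 kept probes were tested (adjusted p = 0.00704), and its 24 h mean of 0.63 ± 0.22 did not (adjusted p = 0.083). The probes A_55_P2166486 (chr2:102672645-102672704) and A_55_P2166488 (chr2:102677971-102678030) lie at higher coordinates, on the side of the gene's start, since Cd44 is on the minus strand. The first was well above background in 3 control and 1 treated livers, with a 48 h ratio of -0.02 ± 0.08, and the second was too dim to be kept. The sequences of the probe that was called and of the first of the dim ones are:
Cd44 A_55_P2166501: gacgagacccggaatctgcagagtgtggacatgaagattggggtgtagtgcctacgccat
Cd44 A_55_P2166486: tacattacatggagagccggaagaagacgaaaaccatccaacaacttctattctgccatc
The brightest probe and these 2 are each assigned to 4 RefSeq transcripts of Cd44. The mean over the kept probes at 48 h was 0.49 (adjusted p = 0.0485).

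**Figure D4:**
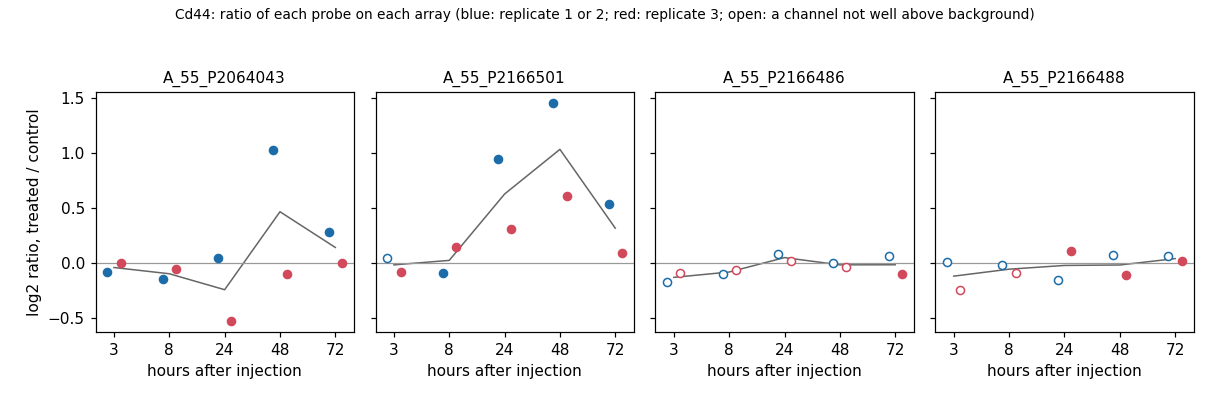
Log2 ratio of treated over control (vertical axis) against hours after injection for the 4 Cd44 probes; points are arrays, blue for replicate 1 or 2 and red for replicate 3, lines join means, and open points have a channel not well above background. A_55_P2166501 reaches 1.45 and 0.61 at 48 h, and the brightest probe, on the left, splits into 1.03 and -0.10.

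The change of the ratio between neighbouring time points, in which a constant dye effect cancels, was tested in the same limma fit. Between 48 h and 72 h, when 22.3% of all genes were called, 13.3% as lower and 9.08% as higher, 3 of the 8 genes fell back, and 2 with median centring. The difference was -3.25 ± 0.59 (SE) for Tnfrsf12a (adjusted p = 0.00638), -1.57 ± 0.22 for Cd24a (adjusted p = 0.00238) and -1.18 ± 0.15 for Sox9 (adjusted p = 0.00164). The difference for Anxa2, -2.40, just missed the threshold (adjusted p = 0.0503). Between 24 h and 48 h, when 13.6% of all genes were called, 10.1% as higher and 3.49% as lower, Cd24a alone was called, higher by 1.08 ± 0.22 (adjusted p = 0.0166), and Sox9 differed by 0.51 (adjusted p = 0.0614). The Cd24a call was lost without 24 h replicate 3, with the slide as a block, with offset 0, with median centring, in the software's ratio and in the authors' deposited value table.

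Between 3 h and 8 h and between 8 h and 24 h none of the 8 genes was called, where 1.62% (1.13% higher, 0.483% lower) and 11.7% (4.37% higher, 7.29% lower) of all genes were. At an unadjusted p below 0.05 limma gave 2 genes in each: Tnfrsf12a, with a difference of 2.68 (adjusted p = 0.0703), and Sox9, with 0.76 (adjusted p = 0.0532), in the first, and Anxa2 and Cd24a in the second. The F test over all time points, passed by 29.5% of genes, was passed by 4 of the 8: Sox9 (adjusted p = 0.00271), Cd24a (0.00282), Tnfrsf12a (0.00782) and Anxa2 (0.0485).

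In the control livers alone no member of the 8 differed between time points (limma F test on the Cy3 channel), where 2.25% of all genes did. At an unadjusted p below 0.05 there were 2, Tnfrsf12a (adjusted p = 0.116) and Anxa2 (adjusted p = 0.16). The levels of Sox9 and Cd24a in control livers had standard deviations of 0.16 and 0.23 (n = 10), those of Tnfrsf12a, Spp1 and Anxa2 of 0.60, 0.58 and 1.16.

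The genes of the TWEAK and Fn14 pathway did not move as a group. Of 16 tested, 2 rose and 1 fell at 48 h, 3 rose and 2 fell at 24 h and 2 rose at 8 h, with a median log2 ratio of 0.12 at 48 h against -0.01 over all genes. At 48 h 19% of all genes were called higher and 14.3% lower. The shares were 7.67% and 12.1% at 24 h and 7.36% and 8.41% at 8 h. The ligand gene Tnfsf12 was not called at any time point, with 0.90 ± 0.31 (SE) at 3 h (adjusted p = 0.149) and -0.25 ± 0.31 at 48 h (adjusted p = 0.599). Map3k14, the kinase NIK that acts below Fn14 in the alternative NF-kB pathway, rose from 8 to 48 h, by 1.01, 1.08 and 0.82, each ± 0.14. Chuk, the kinase IKK alpha that NIK activates, fell by 1.25 ± 0.15 at 24 h and by 1.08 ± 0.15 at 48 h. Rela, an NF-kB subunit, rose by 0.83 ± 0.17 at 8 h.

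Other genes of bile duct cells did not rise with Sox9 at 48 h. Of 20 tested, 0 rose and 4 fell at 48 h, among them the sodium pump subunit Atp1b1 (-0.75 ± 0.25, SE) and the chloride channel Cftr (-0.50 ± 0.14), and with median centring none was called. At an unadjusted p below 0.05 limma gave 2 higher and 5 lower. At 24 h 4 rose and 1 fell: the keratin Krt23 rose by 2.10 ± 0.31 (adjusted p = 0.00207, limma), the matrix protease Mmp7 by 1.13 ± 0.23 (adjusted p = 0.00935), and Atp1b1 fell by 1.46 ± 0.25 (adjusted p = 0.00388). Krt8 and Krt18, the keratins that hepatocytes also make, both rose, Krt8 by 1.86 ± 0.46 and Krt18 by 1.99 ± 0.39 at 24 h and by 2.02 ± 0.46 and 1.91 ± 0.39 at 48 h.

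Of 12 other genes of liver progenitor cells, 2 rose and 1 fell at 48 h, when 19% of all genes were called higher and 14.3% lower. Afp, made by fetal liver cells, rose by 4.08 and 3.93 on the 2 arrays (SE of the mean 0.46, adjusted p = 0.000408, limma), Tspan8 rose by 0.35 ± 0.11, and the Wnt target Lgr5 fell by 1.18 ± 0.21 (adjusted p = 0.00344). Afp was at 10.93 and 10.33 in the treated livers of 48 h, above every control liver, and its ratio at 72 h was 0.01. Of 13 Notch genes, whose pathway specifies bile duct cells, 2 rose and 1 fell at 48 h: Notch2 by 0.82 ± 0.13 and its ligand Jag1 by 0.78 ± 0.15 rose, and Notch1 fell by 1.01 ± 0.19. Onecut1, a factor of duct development, fell by 0.94 ± 0.13 at 3 h and by 1.15 ± 0.13 at 8 h.

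More genes were called higher at 48 h in the YAP and TEAD list and in the annexin list than in those above. Over all genes 19% were called higher and 14.3% lower at 48 h, and 7.36% higher at 8 h. Of 16 genes of YAP and TEAD, the growth-control factors, and of their targets, 11 rose and 0 fell at 48 h, with a median of 0.70, and 3 rose at 8 h; at an unadjusted p below 0.05 limma gave 11 higher and 0 lower at 48 h. The secreted proteins Ccn2 and Ccn1 rose by 2.29 ± 0.22 (SE) and 1.13 ± 0.32 at 48 h, Ankrd1 rose by 1.10 ± 0.15, and Ccn1 was at 2.71 ± 0.32 at 8 h (adjusted p = 0.00147, limma). Of 14 genes of the annexins, their S100 partners and the plasminogen system, 10 rose and 1 fell at 48 h, with a median of 1.27, and 1 rose at 8 h. S100a6 rose by 3.48 ± 0.74, the annexin Anxa3 by 2.09 ± 0.27 and the Anxa2 partner S100a10 by 1.96 ± 0.31, while plasminogen itself, Plg, fell by 2.49 ± 0.16. Centring by the median gave 7 of 16 and 9 of 14 higher at 48 h, and none higher in either list at 8 h.

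**Figure D5:**
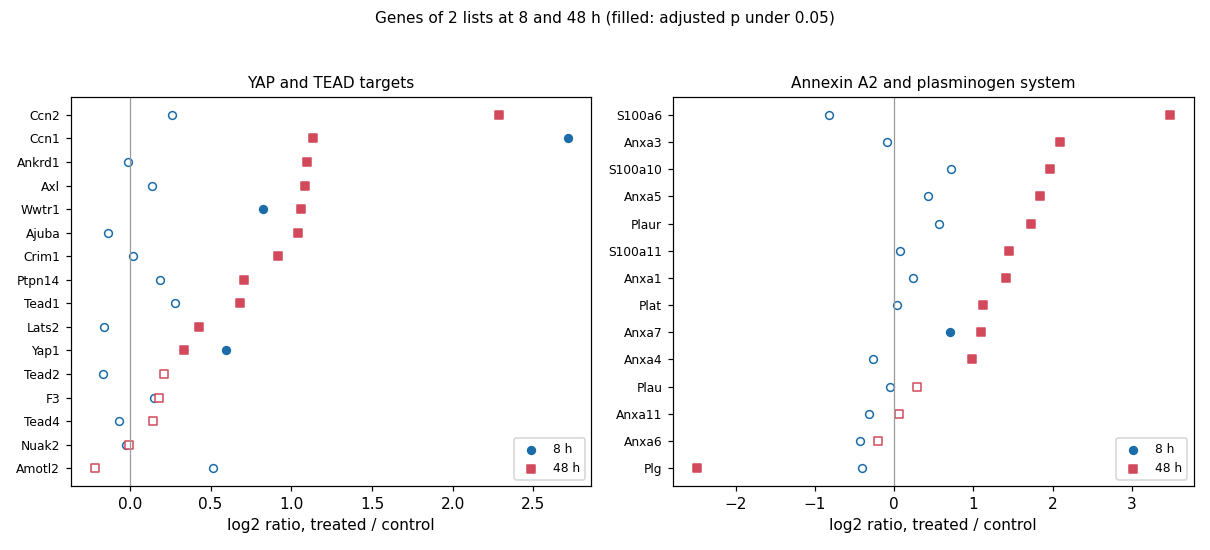
Log2 ratio of treated over control (horizontal axis) at 8 h (blue circles) and 48 h (red squares) for the 16 genes of the YAP and TEAD list and 14 of the annexin and plasminogen list; filled marks have an adjusted p under 0.05. At 48 h 11 and 10 genes are filled to the right of 0, and Plg, at -2.49, is filled on the left.

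The receptors of osteopontin and of hyaluronan were mixed at 48 h, when 19% of all genes were called higher and 14.3% lower. Of 8 osteopontin receptor genes, 4 rose and 1 fell at 48 h, the integrin chains Itgb3 by 1.38 ± 0.16 (SE), Itgav by 0.84 ± 0.12 and Itgb1 by 0.80 ± 0.16 among those that rose. Of 12 genes of the hyaluronan system, 4 rose and 3 fell: the hyaluronan receptor Lyve1 rose by 1.82 ± 0.18, and the hyaluronidase Hyal1 fell by 1.31 ± 0.26. The linkers of Cd44 to actin were split, since Rdx fell by 1.34 ± 0.17 while Ezr and Msn rose by 0.83 ± 0.14 and 1.25 ± 0.34. At 72 h none of the 112 genes of these 9 lists, with Sox4 on 2 of them, was called by limma, and 9 had an unadjusted p below 0.05.

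The 9 genes were measured in whole liver, where fewer cells of a type and less RNA per cell cannot be told apart. Markers of several cell types moved at 48 h too, when 19% of all genes were called higher and 14.3% lower. Of 4 duct cell markers 3 were tested, Sox9, Krt7 and Krt19, and 1 of 3 was called. Their summed linear level at 48 h was 220.1 to 299.2 in the controls and 307.8 to 543.6 in the treated livers. Over all 10 controls it ran from 220.1 to 414.2 with a median of 308.5. Epcam was not well above background in any liver of 48 h. Of 14 macrophage markers 6 rose and 1 fell, with Marco at 3.83 ± 0.84 (SE) and Lgals3 at 2.68 ± 0.64, and their summed level was 12220 to 15780 in the controls and 21590 to 32430 in the treated livers. Of 6 neutrophil markers 5 rose, with S100a9 at 3.80 ± 0.53, and 1, Csf3r, fell by 0.47 ± 0.16. Their summed levels overlapped, at 24800 to 30090 and 21480 to 30000. Such a linear sum, here and in the other lists, is weighted to its brightest probes, so it need not follow most of the markers. Of 8 hepatocyte markers 0 rose and 6 fell (0 and 7 at an unadjusted p below 0.05, limma), with a summed level of 520800 to 561500 in the controls and 277300 to 370200 in the treated livers, against 339700 to 561500 in all 10 controls. Of 9 endothelial markers 2 rose and 0 fell (2 and 2 at an unadjusted p below 0.05, limma), Lyve1 among them with 1.82 ± 0.18, while their summed level was 6069 to 7463 in the controls and 5346 to 5979 in the treated livers. Of 10 lymphocyte and 9 stellate cell markers 1 each fell, and of 4 mesothelial markers none was called. The part of these cell types in the values of Spp1, Anxa2, Cd24a, Cd44 and Tnfrsf12a was not tested.

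Likeness of pattern was described by the Pearson correlation of log2 ratios over the 10 arrays, with genes that were called at 1 or more time points. Nearest to Tnfrsf12a were Psat1 (0.980), Rnf39 (0.974), Hilpda (0.973), Cidec (0.972) and Inhbb (0.971). Nearest to Sox9 were Lyve1 (0.976) and Igsf11 (0.975), to Cd24a Rpl13 (0.992) and Cidea (0.988), to Anxa2 S100a11 (0.983) and Itga6 (0.975), and to Spp1 Adam19 (0.974) and Phldb2 (0.965). For Krt19 the best were Septin2 (0.929) and Tmem258 (0.911), for Cd44 Adap1 (0.928) and Vill (0.916), and for Krt7 Cyba (0.875) and Slc16a3 (0.865). Within the 8 genes Anxa2 ran with Cd24a (0.911), Krt7 with Cd44 (0.892), Spp1 with Anxa2 (0.849) and Tnfrsf12a with Sox9 (0.829), and Tnfrsf12a and Cd44 correlated at 0.043. The points share arrays and time points, so these values describe the pattern over time and hold no test.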

How the data were processed

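RNA of 10 control and 10 treated livers was measured on 10 two-colour arrays. Per the file headers, images were quantified by Agilent Feature Extraction 10.7.3.1; deposited scanner files hold mean and background intensity per channel and the software's log10 ratio of Cy5 over Cy3. The authors' deposited value table holds a score that equals 1.44 times that log10 ratio; it was rescaled and used as an alternative. The genome build of probe positions is mm9 per the file headers.

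Mean intensities were corrected with normexp (offset 50) and log2 ratios normalized by loess in limma 3.58.1 (R 4.3.3), with 1377 control spots and outlier-flagged spots at weight 0. Normexp was fitted without 42 spots on 4 arrays, up to 22 on 1 array, whose local background exceeded their signal by over 20 units. These spots were left out, a choice made after seeing the data: on 1 array such a spot had a Cy3 background of 158894 against a median of 15. Levels of a channel were scaled between arrays by Aquantile. Of 39429 probes, 29617 exceeded background clearly in 1 channel of both arrays at some time point and were kept; the brightest stood for its gene. Symbols came through RefSeq accessions of GRCm38.p6 (26581 probes), current symbols (2597) or older ones (492); 9759 probes kept the file's name. The fit took 1 mean for each time point, which left 5 residual degrees of freedom, with two-sided tests adjusted by Benjamini-Hochberg over 24004 genes; arrays, 2 per time point, limit the precision. Mice are numbered as individual animals in the labels.

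All 9 genes and the gene lists were chosen with earlier results of these data known. Genes named besides the 9 are Tnfsf12, Krt8 and Krt18, the called genes with the largest ratios in each list (up to 3, or 2 for cell type markers), and the nearest by correlation. Cftr, Csf3r, Ezr, Msn, Jag1, S100a10, Tspan8 at 48 h and Onecut1 at 3 h were added after their values were seen. So were the 24 h control values of S100a6, Afp, Marco, Lgals3, S100a9 and Krt8. Alternatives changed the background correction, centring, filter, probe rule, blocks and arrays, and used the software's ratio. Exon and UTR positions of probes were not analysed here, and 1 gene of the annexin and plasminogen list is not reported here.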

Additional observations from a re-analysis of the deposited data

Results flagged for a closer look

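4 differences between neighbouring time points passed the test of the difference itself among the 9 genes. The treated over control log2 ratio of Cd24a was higher by 1.08 at 48 h than at 24 h, a call that was lost with the slide as a block, without 24 h replicate 3, with offset 0 or median centring, and in the software's ratio and the value table. From 48 h to 72 h it changed by -1.57 for Cd24a, by -1.18 for Sox9 and by -3.25 for Tnfrsf12a. For each of the 3 genes both arrays of 48 h lay above both arrays of 72 h.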

How the results depend on the processing

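With 2 arrays a time point and no dye swap, single ratios are limited, and dim probes (Sox9, Krt7, Krt19, Cd24a) change in size near background. At 48 h the count of genes called stayed between 4 and 7 in 23 alternatives, and Tnfrsf12a, Sox9, Cd24a and Anxa2 were called in 23 of 23. Spp1 at 48 h was called in 13 of 23. No value of the 8 genes that was called in the reported fit changed its sign in an alternative. Anxa2 at 24 h, not called in that fit, ran from -0.04 to 2.91. Against 0 called at 3 h, 1 was called with the software's ratio and 1 with the authors' value table. Against 2 at 8 h and 2 at 24 h, 1 and 1 were called with normexp fitted on all spots and 0 and 0 with median centring. At 24 h 5 were called against all 10 control livers, a fit that pools controls over time points (added after seeing the data). Median centring moved the median of all genes to -0.24 at 3 h and -0.12 at 24 h and left 92 genes higher and 36 lower at 8 h, 193 and 659 at 24 h and 1466 and 295 at 48 h, against 1767 and 2018, 1842 and 2894, and 4549 and 3441. Against 0 between 3 h and 8 h, 1 was called with the mean of all probes and 2 with an intensity trend. Against 1 between 24 h and 48 h, 0 were called with offset 0, median centring, the software's ratio, the value table or the slide as a block, and 2 with no background correction or an intensity trend. Against 4 in the F test over time, normexp on all spots gave 2 and median centring 1. Leaving out 1 array gave 1 to 3 at 8 h, 1 (without 24 h replicate 1) to 5 (without 24 h replicate 3) at 24 h, 0 to 1 between 3 h and 8 h, 0 to 2 between 8 h and 24 h (2 without 24 h replicate 3), 0 (without 24 h replicate 3) to 2 (without 24 h replicate 1) between 24 h and 48 h and 0 to 1 in control livers. The replicate block changed the count between 48 h and 72 h from 3 to 4 and no other. Same-numbered arrays deviated together, with a correlation over 0.1, in 4 of 10 pairs of time points (correlations -0.08 to 0.32). Replicate 3 was also the second scan day, so pairing and scan day cannot be told apart here. The numbers were not taken to pair the mice. The cause of these changes was not tested.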
